A study of Homo sapiens with 8 samples.

Results

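The transcripts described are those of 6 genes of DNA mismatch repair, MSH6, MSH3, PMS2, PMS1, MLH3 and EXO1, which were chosen by name from a table of 21059 genes. All 6 symbols were in the table once, and each had a mean above 5 CPM (counts per 1000000 reads). RNA sequencing was used on MDA-MB-157, an established human breast cancer line that lacks estrogen receptor. Cells in T25 flasks were held for 48 hours in 5 mM glucose (low glucose, libraries LG1 to LG4) or in 25 mM glucose (high glucose, HG1 to HG4), which gave 8 libraries, 4 per condition. Both groups were kept without serum and were first conditioned in low glucose, and no library is labelled as holding mannitol, an osmotic control. The comparison asks which transcripts of the pathway differ under excess glucose, used as a culture model of hyperglycemia. All replicates are of 1 line, and the labels do not say whether they came from separate cultures, so p-values measure only the spread between these libraries.

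Mismatch repair removes wrongly paired bases and small loops that DNA polymerase leaves behind the replication fork. MutS complexes recognise the error: MSH6 is the subunit that directs them to single mispairs and very small loops, and MSH3 the subunit that directs them to larger loops. MutL complexes then act on the strand to be repaired, with PMS2 supplying the nicking activity of the main complex, MLH3 that of a complex best known from meiosis, and PMS1 forming a complex whose part in human repair is less clear. EXO1 is the exonuclease that removes the stretch holding the error, after which the gap is filled by the replication machinery. Loss of this pathway can show in tumors as microsatellite instability. Further core genes of the pathway are not analysed here.

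The table held libraries of similar depth, estimated at 9721649 to 12482542 reads from the size of 1 read in each library. A floor of 3 reads corresponded to 0.212 to 0.267 CPM, so every member lay far above it. ESR1, which encodes the estrogen receptor, averaged 0.121 CPM in low and 0.0598 CPM in high glucose, below that floor. The study lists the line as estrogen receptor-negative. PGR, a target gene of that receptor, lay above the floor, at 4.76 CPM in low and 5.35 CPM in high glucose. Of 11 marker genes, 3 were higher in high glucose (GATA3, EPCAM and PECAM1) and 4 were lower (VIM, KRT8, KRT18 and ERBB2). The other 4 did not pass the limma test over all genes. Thus 7 of 11 were called, beside 46.8% of all genes and 62.1% of those with a mean of at least 1 CPM. GATA3 averaged 0.123 CPM in low glucose, below the floor, and 1.09 CPM in high glucose. PECAM1 averaged 2.13 CPM in high glucose, with a log2 change of 0.63. The mesenchymal gene VIM averaged 4091 and 2967 CPM in low and high glucose, the epithelial keratins KRT18 233.5 and 170.1 CPM and KRT8 130.8 and 88.3 CPM, and EPCAM 4.50 and 6.996 CPM. CDH1 was under 1 CPM on average in both groups, and the leukocyte gene PTPRC was below the floor in both. The part of these changes in the results was not tested. HG1 stood apart from the other high-glucose libraries. Its log2 values relative to those libraries fell with transcript length (Spearman's rho = -0.65 across 11223 genes, which are not independent replicates), against 0.248 to 0.466 in HG2, HG3 and HG4 and -0.133 to 0.0562 in low glucose. Each library was set against the others of its group, so the values of HG2, HG3 and HG4 partly mirror that of HG1. The change of each member is therefore also given without HG1.

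The members differed between high and low glucose in both directions. With limma on log2(CPM + 1) and Benjamini-Hochberg adjustment over all 21059 genes, 5 of the 6 passed an adjusted p of 0.05. MSH6 and EXO1 were higher in high glucose, PMS2, MLH3 and MSH3 were lower, and PMS1 did not pass. In these bulk libraries, a change in the share of some cells and a change of RNA per cell cannot be told apart. The differences were modest, from 0.47 for EXO1 to -0.42 for MLH3 on the log2 scale, with a median of -0.22 over the 6 genes. The same test called 46.8% of all genes, 22.0% as higher and 24.8% as lower, with a median change of -0.01. Among the 14372 genes with a mean of at least 1 CPM, as all members had, it called 62.1%, 29.5% as higher and 32.6% as lower, and their median change was -0.04. The groups did not overlap for the 5 called members, and they did not overlap for 44.5% of all genes and 60.0% of those of at least 1 CPM. Both counts of members were thus read against a background in which most expressed genes differed. The size of the members' changes was also ordinary. The share of genes of at least 1 CPM with a smaller absolute change was 62.8% for EXO1, 56.9% for MLH3, 48.2% for PMS2, 42.3% for MSH6, 41.8% for MSH3 and 22.6% for PMS1.

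**Figure D1:**
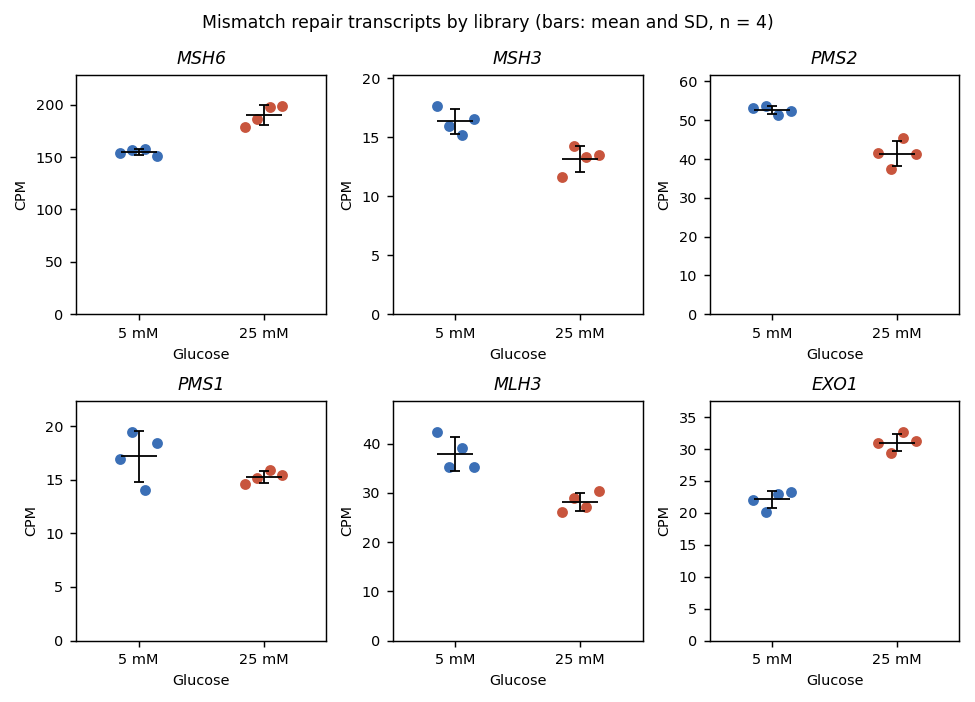
Transcript level of each mismatch repair gene in CPM (vertical axes from 0) in the 4 low-glucose libraries (5 mM, blue) and the 4 high-glucose libraries (25 mM, red). Points are libraries, in the order of their numbers, and bars are the mean and SD. The groups are apart for every gene except PMS1, with high glucose above low for MSH6 and EXO1 and below it for MSH3, PMS2 and MLH3.

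The promoters of EXO1, MSH6, MSH3 and PMS2 are shown because these genes differed in direction yet hold related short motifs. The windows run from 250 bases before to 50 bases after a transcript start in RefSeq on GRCh38.p14, 5′ to 3′ on the strand of the gene. For EXO1 that start lies inside the gene, downstream of the first base of its annotated span, and for the other members it is the first base of the span. Capitals mark matches on either strand to an E2F-type word (TTTCCCGC, TTTGGCGC, TTTGCCGC or TTTCGCGC), the kind of site bound by the E2F factors of S phase genes, or to the cyclic AMP response element TGACGTCA. EXO1 (chr1:241847954-241848253, plus strand) and MSH6 (chr2:47782895-47783194, plus strand) were the members higher in high glucose. MSH3 (chr5:80654402-80654701, plus strand) and PMS2 (chr7:6009057-6009356, minus strand) were lower.
EXO1: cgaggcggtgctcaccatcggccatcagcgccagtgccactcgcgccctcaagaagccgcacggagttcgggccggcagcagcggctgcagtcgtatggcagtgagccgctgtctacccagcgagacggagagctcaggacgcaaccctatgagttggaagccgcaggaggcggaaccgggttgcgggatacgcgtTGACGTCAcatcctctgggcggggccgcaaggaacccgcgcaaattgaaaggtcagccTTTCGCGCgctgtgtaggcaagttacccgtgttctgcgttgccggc
MSH6: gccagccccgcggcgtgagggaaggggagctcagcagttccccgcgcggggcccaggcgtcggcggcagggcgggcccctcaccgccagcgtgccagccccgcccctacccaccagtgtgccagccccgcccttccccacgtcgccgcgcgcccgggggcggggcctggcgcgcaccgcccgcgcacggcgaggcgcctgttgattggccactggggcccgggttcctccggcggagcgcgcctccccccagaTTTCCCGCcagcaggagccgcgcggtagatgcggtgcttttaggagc
MSH3: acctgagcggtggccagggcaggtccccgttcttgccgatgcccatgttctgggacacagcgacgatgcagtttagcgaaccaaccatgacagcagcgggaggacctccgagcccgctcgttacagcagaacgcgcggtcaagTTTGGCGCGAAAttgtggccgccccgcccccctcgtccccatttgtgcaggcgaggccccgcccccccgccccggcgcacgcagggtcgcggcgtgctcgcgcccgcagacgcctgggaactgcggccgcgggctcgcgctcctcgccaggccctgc
PMS2: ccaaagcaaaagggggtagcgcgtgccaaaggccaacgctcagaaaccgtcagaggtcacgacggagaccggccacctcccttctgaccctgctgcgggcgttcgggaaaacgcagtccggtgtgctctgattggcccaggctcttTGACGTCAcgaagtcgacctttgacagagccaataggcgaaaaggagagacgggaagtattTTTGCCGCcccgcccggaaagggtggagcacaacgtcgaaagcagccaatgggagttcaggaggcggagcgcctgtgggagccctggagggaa

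An E2F-type word was thus found in the promoters of 4 of the 6 members, against 3.33% of 27305 RefSeq promoters of the same length, noncoding genes included. Relative to the start used for the window, it began 4 bases after the first base in EXO1, 3 bases after it in MSH6 and 43 bases before it in PMS2. MSH3 had 2 such words on opposite strands that overlap, and they make up its 1 run of capitals. The word was present in both members that were higher and in 2 of the 3 that were lower, and PMS1 and MLH3 had none in their windows. The cyclic AMP response element was found in EXO1 and PMS2, and in 1.98% of all promoters. The GC box GGGCGG, searched on both strands, occurred in each member's window except that of MLH3, from 1 match in PMS1 and EXO1 to 5 in MSH6, and in 44.6% of all promoters. CCAAT was found in MSH6, PMS2 and PMS1, and in 35.7% of all promoters. These matches are descriptions of the letters, and binding was not measured.

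MSH6 (ENSG00000116062.15) lies on chromosome 2 at 47783145 to 47810101 of GRCh38.p14, and its main transcript has 10 exons and 4265 bases. It had 154, 156, 158 and 151 CPM in LG1 to LG4. In HG1 to HG4 it had 179, 186, 197 and 199 CPM. Every high-glucose library was above every low-glucose library, and the low-glucose values lay closer together than the high-glucose values. The mean rose from 154.6 ± 2.93 to 190.3 ± 9.54 CPM (SD, n = 4 each), by 1.23 times. The log2 change was 0.30 (SE 0.0375, limma adjusted p = 5.62e-04), and it was 0.33 without HG1, the lowest of the high-glucose libraries. After quantile normalization it was 0.19 and still passed (adjusted p = 0.00301). Its last exons overlap 530 exon bases of FBXO11 on the opposite strand. Whether the counting used strand was not established, so reads from that overlap cannot be told apart. FBXO11 itself, part of a ubiquitin ligase, had 109.9 and 119.5 CPM in low and high glucose, with a log2 change of 0.12 that did not pass (adjusted p = 0.105).

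MSH3 (ENSG00000113318.10), on chromosome 5 at 80654652 to 80876815, has 24 exons and a transcript of 4443 bases. Its values were 17.7, 15.9, 15.2 and 16.6 CPM in low glucose and 11.6, 14.3, 13.4 and 13.5 CPM in high glucose. Its groups did not overlap, but LG3 (15.2 CPM) and HG2 (14.3 CPM) lay close to each other. The mean fell from 16.3 ± 1.04 to 13.2 ± 1.12 CPM (SD, n = 4 each), with a log2 change of -0.29 (SE 0.0715, limma adjusted p = 0.0128). Without HG1, the lowest library, the log2 change was -0.24 (adjusted p = 0.0148). After quantile normalization the change was -0.21 and no longer passed (adjusted p = 0.0611). Some 31-base words of its transcript also occur in transcripts of other genes, so part of its reads could be assigned elsewhere.

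The 2 MutS subunits therefore moved apart. Within a library, MSH6 had 8.70, 9.81, 10.3 and 9.11 times the CPM of MSH3 in low glucose and 15.4, 13.1, 14.8 and 14.8 times in high glucose. The ratios did not overlap between the groups, with means of 9.49 ± 0.735 and 14.5 ± 0.993 (SD, n = 4 each). The log2 difference, with 1 CPM added to each value, was 0.59 (SE 0.0711). An exact two-sided permutation test over the 70 assignments of the libraries gave p = 0.0286, the smallest it can give. This exact permutation test gave p = 0.0858 after Benjamini-Hochberg adjustment over the 3 ratios examined, which does not pass 0.05. The groups of both genes were already apart in opposite directions, so the ratio had to separate them and the unadjusted value was fixed. With no other ratio at that smallest value, the adjusted value could not be lower. Neither value therefore adds to the separate results of the 2 genes. Multiplying all values of a library by 1 factor leaves the ratio itself as it is. Quantile normalization, which is not such a factor, was not run on the ratio and brought the separate changes of both genes closer to 0.

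PMS2 (ENSG00000122512.16), on chromosome 7 at 5970925 to 6009106, has 15 exons and a transcript of 5093 bases. It had 53.1, 53.7, 51.4 and 52.5 CPM in LG1 to LG4. In HG1 to HG4 it had 41.6, 37.5, 45.4 and 41.2 CPM. The lowest low-glucose library (LG3) was above the highest high-glucose library (HG3), and the spread was wider in high glucose. The mean fell from 52.7 ± 0.993 to 41.4 ± 3.22 CPM (SD, n = 4 each), with a log2 change of -0.34 (SE 0.0536, limma adjusted p = 0.00162). It was -0.35 without HG1. The level of PMS2 itself is uncertain, because 48.7% of the 31-base words of its transcript also occur in transcripts of other genes, 37.7% in a gene without a symbol, 18.6% in PMS2CL and 3.69% in PMS2P1.

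There were 9 copies of PMS2 in the table, and 5 of them averaged at least 1 CPM. PMS2CL, the most abundant, had 24.1 ± 2.18 CPM in low and 23.4 ± 1.74 CPM in high glucose (SD, n = 4 each), with a log2 change of -0.04 that did not pass (limma adjusted p = 0.757). PMS2P1 was lower, at 6.20 ± 1.61 against 9.09 ± 0.591 CPM (log2 change -0.51, adjusted p = 0.0323), although its groups overlapped. PMS2P3 (3.57 and 3.75 CPM), PMS2P4 (1.54 and 0.965 CPM) and PMS2P6 (1.49 and 0.893 CPM) did not pass. Of the 9 copies, 1 was thus called lower and 0 higher, beside 24.8% and 22.0% of all genes. The part that misassigned reads have in the PMS2 values was not tested.

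MLH3 (ENSG00000119684.15) lies on chromosome 14 at 75013775 to 75051467 and has the longest transcript of the 6, with 7820 bases and 13 exons. Its values were 42.3, 35.2, 39.1 and 35.3 CPM in low glucose and 26.2, 28.9, 27.2 and 30.3 CPM in high glucose. The groups did not overlap, with LG2 and LG4 nearest to the high-glucose libraries. The mean fell from 37.97 ± 3.43 to 28.1 ± 1.81 CPM (SD, n = 4 each). The log2 change, the lowest among the members, was -0.42 (SE 0.0726, limma adjusted p = 0.00269), and -0.38 without HG1.

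PMS1 (ENSG00000064933.17), on chromosome 2 at 189784450 to 189877629 with 13 exons and a transcript of 3156 bases, was the member that did not pass. It had 16.9, 19.5, 14.0 and 18.4 CPM in low glucose and 14.6, 15.1, 15.9 and 15.5 CPM in high glucose. The groups overlapped through LG3, the lowest of all 8 libraries, while the other low-glucose libraries were above every high-glucose library. The means were 17.2 ± 2.37 and 15.3 ± 0.550 CPM (SD, n = 4 each). The log2 change was -0.15, with a 95% interval from -0.38 to 0.07 (limma adjusted p = 0.245), so both no change and a decrease like those of PMS2 and MSH3 lie within it. The call rested on LG3. Without that library the log2 change was -0.24 and passed (adjusted p = 0.0166), and without HG1 it was -0.13 and did not (adjusted p = 0.377).

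Neither ratio among MutL subunits passed the permutation test, which with 4 libraries per group cannot exclude a difference. PMS2 had 3.10 ± 0.409 times the CPM of PMS1 in low glucose and 2.71 ± 0.178 times in high glucose (SD, n = 4 each). The log2 difference was -0.19 (SE 0.0984), with an exact permutation p of 0.114 (0.171 after Benjamini-Hochberg adjustment). PMS2 had 1.40 ± 0.132 and 1.48 ± 0.176 times the CPM of MLH3, with a log2 difference of 0.07 (SE 0.107, exact permutation p = 0.514, also after adjustment).

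**Figure D2:**
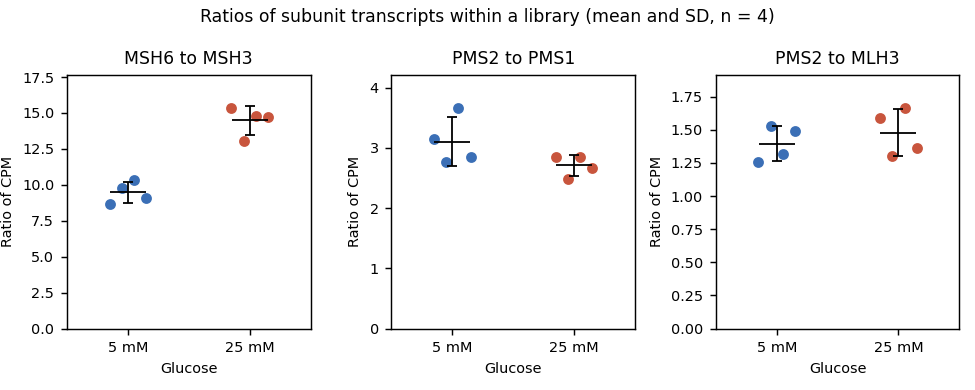
Ratio of the CPM of subunits of the same family (MutS or MutL) within each library, at 5 mM glucose (blue) and 25 mM glucose (red). The ratios are MSH6 to MSH3, PMS2 to PMS1 and PMS2 to MLH3, with the mean and SD of 4 libraries. The vertical axes are ratios of CPM and start at 0. The groups are apart for MSH6 to MSH3 (8.70 to 10.3 against 13.1 to 15.4) and overlap for the other ratios.

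EXO1 (ENSG00000174371.17), on chromosome 1 at 241847986 to 241889939 with 16 exons and a transcript of 3449 bases, had the largest change of the 6. It had 22.0, 20.2, 23.0 and 23.2 CPM in LG1 to LG4. In HG1 to HG4 it had 30.9, 29.3, 32.7 and 31.2 CPM. The highest low-glucose library (LG4) was well under the lowest high-glucose library (HG2), and the spread was alike in both groups. The mean rose from 22.1 ± 1.38 to 31.03 ± 1.36 CPM (SD, n = 4 each), by 1.40 times. The log2 change was 0.47 (SE 0.0522, limma adjusted p = 2.98e-04) with HG1 and 0.47 without it. No 31-base word of its transcript, or of those of PMS1 and MLH3, was found in another gene.

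To compare genes with each other, CPM was divided by the length of the main transcript. MSH6 was the most abundant by this measure, with 36.2 ± 0.687 CPM per kilobase in low glucose and 44.6 ± 2.24 in high glucose (SD, n = 4 each). In low glucose PMS2 followed with 10.3 ± 0.195 CPM per kilobase, then EXO1 with 6.41 ± 0.400, PMS1 with 5.45 ± 0.751, MLH3 with 4.86 ± 0.439 and MSH3 with 3.68 ± 0.234. The libraries of EXO1 and PMS1, and those of PMS1 and MLH3, overlapped in that order. In high glucose EXO1 had 9.00 ± 0.395 CPM per kilobase and PMS2 8.13 ± 0.632, with overlapping libraries, so the second place was not settled. PMS1 (4.84 ± 0.174), MLH3 (3.60 ± 0.232) and MSH3 (2.97 ± 0.252) kept the last places, each apart from the next. MSH3 was thus the least abundant per length under both conditions. The words that PMS2 shares with its copies limit how well its place in this order is known.

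**Figure D3:**
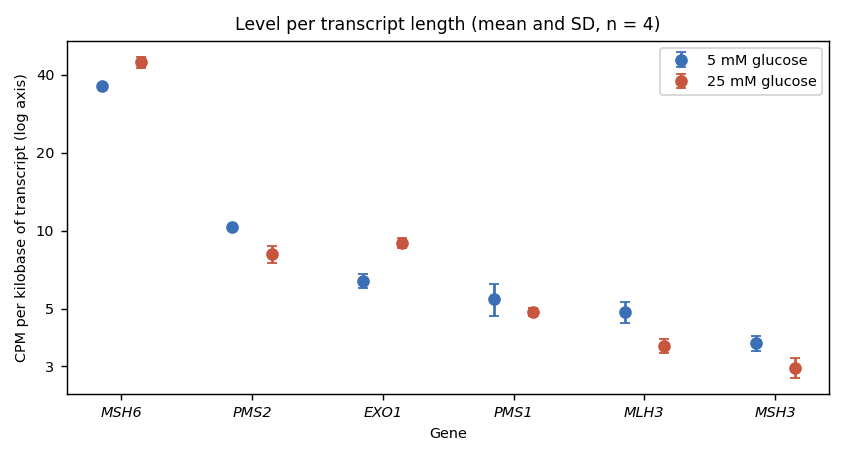
Level of the 6 transcripts in CPM per kilobase of the main transcript (logarithmic axis) at 5 mM glucose (blue) and 25 mM glucose (red), as mean and SD of 4 libraries. MSH6 lies at 36.2 and 44.6 CPM per kilobase, and MSH3 at 3.68 and 2.97. EXO1 and PMS2 approach each other in high glucose at 9.00 and 8.13.

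More of the machinery was examined through a wider list of 18 further genes, of which 17 were in the table and RPA4 was not. The list includes the meiotic MutS homologs MSH4 and MSH5 and a mitochondrial single-strand binding gene, so its counts are not of repair genes alone. Of the 17 genes, 6 were higher in high glucose, 5 were lower and 6 did not pass. Their median log2 change was 0.06 against -0.01 for all genes. Thus 11 of 17 were called, beside 46.8% of all genes and 62.1% of those of at least 1 CPM. Like the members, these genes moved in both directions. PCNA, the sliding clamp that holds the polymerase on DNA and activates MutL, had 86.4, 87.7, 89.6 and 88.4 CPM in low glucose and 179, 144, 144 and 142 CPM in high glucose. HG1 was highest and stood well above the other high-glucose libraries, which were themselves above all low-glucose libraries. The mean rose from 88.0 ± 1.33 to 152.2 ± 17.8 CPM (SD, n = 4 each), with a log2 change of 0.78 (SE 0.0748, limma adjusted p = 1.49e-04). Of the clamp loader genes RFC1 to RFC5, 4 of 5 were called higher, beside 29.5% of all genes of at least 1 CPM. Among them were RFC3 (9.40 to 14.6 CPM, log2 change 0.59, adjusted p = 8.28e-04) and RFC5 (16.8 to 21.1 CPM, 0.31, adjusted p = 0.00255). RFC1 passed narrowly (76.0 to 87.0 CPM, 0.19, adjusted p = 0.0462).

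The genes that fell included MSH5, a MutS homolog of meiotic crossing over, from 7.56 to 4.40 CPM (log2 change -0.67, limma adjusted p = 7.59e-04). POLD4, the smallest subunit of the resynthesis polymerase delta, fell from 20.4 to 10.4 CPM (-0.94, adjusted p = 0.00172). RPA3, a subunit of the protein that coats single-stranded DNA, fell from 31.5 to 23.5 CPM (-0.41, adjusted p = 0.0122). LIG1, the ligase that seals the repaired strand, fell from 10.9 to 8.54 CPM (-0.32, adjusted p = 0.0133). POLD3, another subunit of polymerase delta, had 16.6 and 16.3 CPM, with a log2 change of -0.02 that did not pass (adjusted p = 0.88). MSH4, the meiotic partner of MSH5, was listed at 0 in all low-glucose libraries and stayed under the floor in high glucose.

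**Figure D4:**
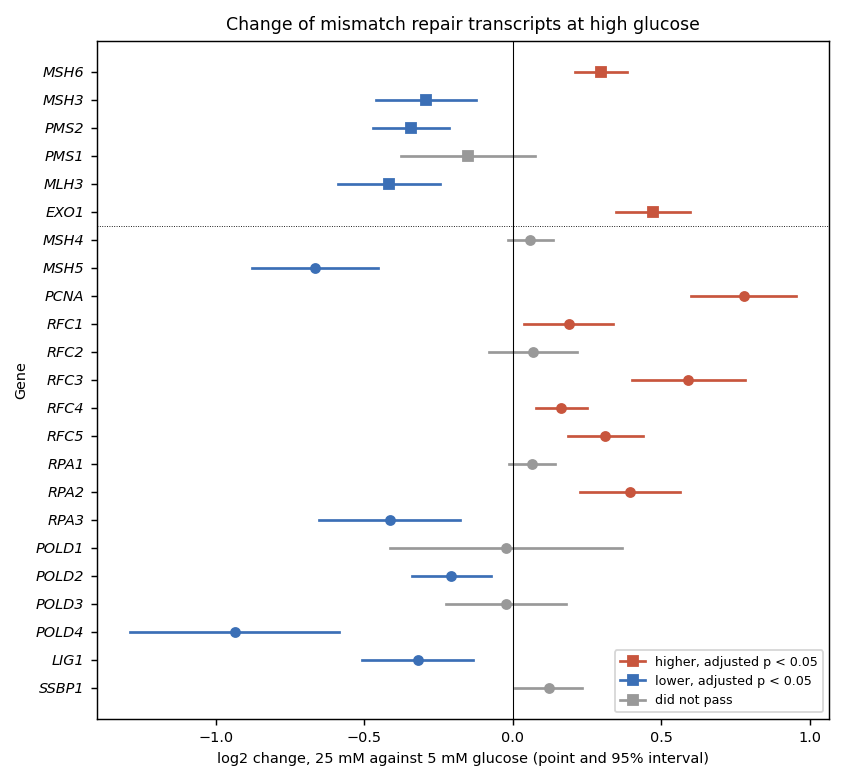
Log2 change of CPM + 1 from 5 mM to 25 mM glucose, with 95% intervals from limma. Squares above the dotted line are the 6 mismatch repair genes, and circles are 17 further genes of the wider list. Red marks genes higher in high glucose at an adjusted p under 0.05, blue those lower, and grey those that did not pass. MSH6 and EXO1 lie to the right of 0 with PCNA at 0.78, and MSH3, PMS2 and MLH3 to the left with POLD4 at -0.94.

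Genes of S phase and proliferation moved mostly upward beside EXO1 and MSH6. Of 17 such genes, 13 were higher in high glucose, 1 was lower and 3 did not pass, with a median log2 change of 0.50. Of all genes of at least 1 CPM, as these were, 29.5% were higher and 32.6% lower. MCM4 and MCM7, subunits of the replicative helicase, rose from 135.6 to 213.5 CPM (log2 change 0.65, limma adjusted p = 1.99e-06) and from 137.7 to 212.3 CPM (0.62, adjusted p = 1.86e-05). CCNE2, a cyclin of S phase entry, rose from 11.9 to 20.7 CPM (0.75, adjusted p = 1.26e-05). MCM6, of the same helicase, was lower, at 63.4 against 71.9 CPM (-0.18, adjusted p = 0.0411), with overlapping groups. The part of proliferation in the changes of the members was not tested.

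Among genes next to the members, ORMDL1 and ACYP1 were higher in high glucose, and FBXO11, AIMP2 and EIF2AK1 did not pass. ORMDL1, a regulator of sphingolipid synthesis that starts 111 bases from PMS1 and is read away from it, had 59.1, 62.6, 59.2 and 62.1 CPM in low glucose and 99.5, 84.6, 87.9 and 86.8 CPM in high glucose. Its groups were far apart, while those of PMS1 overlapped. Its log2 change was 0.55 (SE 0.0529, limma adjusted p = 1.46e-04). ACYP1, an acylphosphatase gene 1776 bases upstream of MLH3 on the same strand, had 6.92, 5.63, 6.71 and 6.85 CPM in low glucose and 15.7, 13.0, 15.01 and 17.2 CPM in high glucose. It rose by 1.11 on the log2 scale (SE 0.0971, adjusted p = 9.52e-05), whereas MLH3 fell. AIMP2, which starts near PMS2 in the opposite direction, had 63.97 and 55.5 CPM and a log2 change of -0.21 that did not pass (adjusted p = 0.0665).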

How the data were processed

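RNA of 8 MDA-MB-157 samples (4 at 5 mM and 4 at 25 mM glucose) was sequenced on an Illumina HiSeq instrument. The authors deposited 1 table of CPM, scaled by trimmed mean of M values factors in edgeR. The submitters' processing notes name hg38 and edgeR, whereas the methods, described first for tumors, give stranded libraries, Trimmomatic and TopHat on hg19. The counting tool and its use of strand are not given in the sources used here. Only 72.4% to 73.7% of low values were whole multiples of 1 read, so no count test was run. Depth was the column sum divided by the value of 1 read, and it covers counting error only.

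Of 21077 lines, 18 pseudoautosomal Y copies identical to their X copies were left out, and 856 genes at 0 in every library were kept. High and low glucose were compared on log2(CPM + 1) with limma 3.58.1 in R 4.3.3 (eBayes with trend, two-sided) and Benjamini-Hochberg adjustment over 21059 genes. Fold changes on this scale understate those of low genes. In simulated data the test called 66 of 100 genes changed 1.5-fold, 97 of 100 changed 2-fold and 10 of 20859 unchanged genes. Changes under 1.5-fold, as all members had, were not simulated, nor was the length trend of HG1. Only the genes named as changed differed in the simulation, and 1 setting gave the spread of all genes. In the data 46.8% of all genes were called, so the simulated rates need not hold there. Ratios were tested by exact permutation (scipy 1.17.1). Lengths and shared 31-base words came from GENCODE transcripts, and coordinates and promoters from RefSeq on GRCh38.p14. Further genes were named as those of smallest adjusted p, up to 3 per direction and list, plus PCNA, POLD3 and LIG1, PMS2 copies of at least 1 CPM and those most correlated with a member. FBXO11, AIMP2, EIF2AK1, MSH4, RFC1 and the marker genes were named outside that rule, after their values were seen. Some genes that the rule names are not reported here. The members and lists were chosen with earlier results of these data known. Alternatives changed the pseudocount, low-value filter, scaling, variance trend, replicate block and transcript length trend, and left out each library.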

Additional observations from a re-analysis of the deposited data

Results flagged for a closer look

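No member had a library standing apart from the other 3 of its group by Dixon's ratio at its 95% critical value. Chance flags about 1 in 20 groups. Of 66 groups of 4 values examined, 6 were past it, against 3.3 by chance. PCNA was highest in HG1, at 178.9 CPM against 141.9 to 144.4 CPM in the other high-glucose libraries, and CCNE2 was also highest there, at 21.6 against 20.4 to 20.5 CPM. ACYP1 was lowest in LG2, at 5.63 against 6.71 to 6.92 CPM. LG1 was lowest for LIG1, at 9.92 against 11.1 to 11.3 CPM, and for the PMS2 copy PMS2P3, at 2.78 against 3.74 to 3.89 CPM. The estimated depth of LG4 was about 12100000 reads, against 10390000 to 10620000 reads in the other low-glucose libraries.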

How the results depend on the processing

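MSH6, EXO1, PMS2 and MLH3 kept their direction and their call under all 19 alternatives, with log2 changes of 0.19 to 0.34, 0.43 to 0.51, -0.40 to -0.30 and -0.45 to -0.36. MSH3 kept its direction (-0.33 to -0.21) but did not pass after quantile normalization (-0.21, limma adjusted p = 0.0611) or with a replicate block (-0.29, adjusted p = 0.0644). The cause was not tested. PMS1 ranged from -0.24 to -0.07 (adjusted p 0.0166 to 0.632) and passed only without LG3 (-0.24). It ranged from -0.24 to -0.0925 without each library in turn. Between 4 and 6 members were called, 9 to 13 genes of the wider list, and 8120 to 10156 of all genes. Same-numbered libraries did not deviate together (r = 0.0692, -0.028, 0.0136 and -0.0403), so the numbers were not taken as pairs, and the block (8921 genes called) changed no other member's call. The MSH6 to MSH3 log2 difference was 0.59 with the block (exact p = 0.125, the smallest possible with 4 pairs) and 0.55 to 0.64 without each library in turn (exact p = 0.0571, the smallest possible), so these p-values say nothing about stability. No direction reversed. Other scalings moved the median change of genes of at least 1 CPM by 0.02 to 0.06. Depth limited no member, and it limits MSH4, ESR1 and the rarer PMS2 copies.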

Other observations

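Of 6 further genes linked to mismatch repair, 3 were higher in high glucose and 0 were lower, beside 29.5% and 32.6% of all genes of at least 1 CPM. MCM8, a helicase of recombination, rose from 32.7 to 51.3 CPM (log2 change 0.63, limma adjusted p = 3.03e-04). SETD2, the enzyme that trimethylates histone H3 on lysine 36, a mark that MSH6 can bind, rose from 50.2 to 74.5 CPM (0.55, adjusted p = 0.00467). MBD4, a glycosylase acting on mispaired thymine, had 22.0 and 26.1 CPM (0.24, adjusted p = 0.0435), with overlapping groups.

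Across the 8 libraries, the genes whose log2 values correlated best with each member were named among 11297 genes of at least 5 CPM, as a description. The libraries form 2 groups, so any pair of genes that differ between the groups correlates. For MSH6 these were HIPK3, AKAP2 and VCPIP1 (Pearson's r = 0.996 each), and 1021 genes reached an r of at least 0.95. For EXO1 they were NUP35, BAG3 and ZC3H15 (0.993, 0.991 and 0.990), with 971 genes at that level. PMS2 was most like KDELC2, SETMAR and SMARCE1 (0.993, 0.992 and 0.991, with 160 genes), and MLH3 most like DNM3OS, MAN2A1 and SUPT3H (0.982, 0.982 and 0.980, with 70 genes). For MSH3, GOLGA2P7 and PAM were among the most alike (0.986 and 0.984, with 35 genes). For PMS1, KCND1, TBX1 and DTWD1 came first (0.956, 0.944 and 0.939), and only KCND1 reached 0.95.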
